A study of Mus musculus with 28 samples.

Results

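Retinoid metabolism and signalling in the liver was followed through 7 genes, Cyp26a1, Rarb, Lrat, Aldh1a1, Aldh1a2, Rbp4 and Ttr. They were chosen with earlier results of these data known, and the array's own gene names give them 9 of its 41174 probes. All 7 were among the 21851 genes tested, of 27729 named genes or unnamed probes on the array. The livers came from 28 male C57/6J mice, 1 array per mouse, aged 33 weeks after 26 weeks on their diet. The groups were HQR (high fat diet with 0.2% quercetin and 0.2% resveratrol, 6 mice), HQ (high fat diet with 0.4% quercetin, 5 mice), HR (high fat diet with 0.4% resveratrol, 6 mice), HFD (the high fat diet alone, 6 mice) and SD (a standard diet, 5 mice). Quercetin is a flavonol and resveratrol a stilbene, both plant polyphenols. Every supplement was given on top of the high fat diet, so no group received a compound with the standard diet. Because HQR received 0.2% of each compound and the single-compound groups 0.4%, differences between them mix dose and combination. Whole liver RNA was measured, and all 7 tested marker genes of hepatocytes were well above background on every array.

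The liver is the main store of vitamin A and also the source of the proteins that carry it in blood. Retinol is stored as retinyl esters, mostly in hepatic stellate cells, and part of it is oxidised through retinal to retinoic acid. Retinoic acid binds nuclear receptors that raise the transcription of a set of target genes, among them the hydroxylases that degrade retinoic acid. Of the 7 genes, Cyp26a1 encodes such a hydroxylase and Rarb encodes retinoic acid receptor beta, and both are well-known targets of retinoic acid. Lrat encodes the acyltransferase that makes retinyl esters. Aldh1a1 and Aldh1a2 encode retinal dehydrogenases, which make retinoic acid, and Rbp4 and Ttr encode the retinol-binding protein and transthyretin, which circulate together as the carrier of retinol.

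The promoters of Cyp26a1 and Rarb are shown because the letters that retinoic acid receptors bind can be read in them. The search used the hexamers AGGTCA or AGTTCA or GGGTCA or GGTTCA, placed as a direct repeat with 5 bases between them, on both strands. The windows are those of RefSeq on build GRCm38.p6, from 250 bases before to 50 bases after the start of the gene, printed in the direction of transcription with the repeat in capitals. The Cyp26a1 window is chr19:37697558-37697857 on the plus strand, and its repeat reads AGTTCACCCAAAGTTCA on the opposite strand.
Cyp26a1: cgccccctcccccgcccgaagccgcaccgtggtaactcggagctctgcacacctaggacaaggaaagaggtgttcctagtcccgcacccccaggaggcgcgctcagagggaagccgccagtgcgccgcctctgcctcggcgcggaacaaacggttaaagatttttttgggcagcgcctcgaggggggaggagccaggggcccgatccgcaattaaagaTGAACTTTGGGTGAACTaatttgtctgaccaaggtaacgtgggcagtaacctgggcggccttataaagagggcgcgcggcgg
The Rarb window is chr14:16575427-16575726 on the minus strand, and its repeat lies on the same strand as the gene.
Rarb: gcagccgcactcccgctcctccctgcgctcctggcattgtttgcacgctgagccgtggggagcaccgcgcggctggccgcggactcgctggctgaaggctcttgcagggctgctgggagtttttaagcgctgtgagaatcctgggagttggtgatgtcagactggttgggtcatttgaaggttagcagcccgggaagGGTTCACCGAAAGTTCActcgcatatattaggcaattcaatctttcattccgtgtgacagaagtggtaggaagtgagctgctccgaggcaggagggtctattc
Such a repeat was present in 32 of 32851 windows of the genome table (0.0974%). A window was held for 6 of the 7 genes, and those of the other 4, Lrat, Aldh1a1, Aldh1a2 and Rbp4, had no match to these letters. Repeats with 1 or 2 bases between the hexamers were also searched. They were present in 0.222% and 0.268% of all windows and in no window of the 6 genes. A match of letters is a description of the window and shows nothing of binding in these livers.

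None of the 7 genes passed an adjusted p of 0.05 in limma in any of the 10 comparisons between diets. The nearest was Cyp26a1 in HQR against SD, 12.9-fold higher with an adjusted p of 0.102. For reference, 0.0503% of all tested genes were called in HQR against SD, 0.0366% in HQ against SD, 0.0549% in HR against SD and 0.114% in HFD against SD. Against HFD, 0.00915% of genes were called for HR, 0% for HQ and 0% for HQR. The share was 0% as well in HQ against HR, in HQR against HQ and in HQR against HR. In a test for any difference among the 5 diets 0.105% of genes were called, and in a contrast of all 4 high fat groups with SD, added after the values had been seen, 0.16% were called. With so few genes called anywhere, a count of 0 of 7 is near what all genes gave.

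At an unadjusted p under 0.05 the counts were 4 of 7 retinoid genes in HQR against SD, where 6.43% of all genes reached it. They were 2 of 7 in HQ against SD (3.91% of all genes), 1 of 7 in HR against SD (5.72%) and 1 of 7 in HFD against SD (6.14%). Against HFD, 1 of 7 reached it for each of HQ (2.13% of all genes), HR (4.92%) and HQR (1.36%). The 4 genes in HQR against SD were Cyp26a1, Lrat, Rarb and Rbp4. The median difference of the 7 genes in HQR against SD was 0.57 on the log2 scale, beside 0.01 for all genes tested. Because the 7 genes were chosen with earlier results of these data known, these counts and this median are no test of the set.

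Cyp26a1, the retinoic acid hydroxylase, had the widest range of the 7 genes. Its probe lies at chr19:37775566-37775625 on build mm9. Levels are log2 processed signals from which the array's own 75th percentile was subtracted. The level ranged from 1.17 to 4.64 in HQR livers with a median of 2.87, and from -1.01 to 1.57 in HR livers with a median of 0.85. In HFD livers it ranged from 0.17 to 5.84 with a median of 1.31. The 5 HQ livers had 0.71, 2.02, 1.45, 4.04 and 0.08, and the 5 SD livers had 0.63, -2.37, -1.62, -0.70 and -0.66. All 6 HQR livers lay above all 5 SD livers, whereas HQ and HFD overlapped SD through SD replicate 1 alone, and HR overlapped 3 SD livers. Of all genes with a value on every HQR and SD array, 0.381% had every HQR liver above every SD liver. HFD replicate 4, at 5.84, was the highest of all 28 livers and SD replicate 2 the lowest, a 296-fold distance, and the standard deviation over all livers was above that of 99.9% of tested genes.

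Group means of Cyp26a1 were 2.75 ± 1.37 in HQR (SD of the livers, n = 6), 1.66 ± 1.52 in HQ (n = 5), 0.58 ± 1.00 in HR (n = 6), 1.88 ± 2.13 in HFD (n = 6) and -0.94 ± 1.13 in mice on the standard diet (n = 5). HQR exceeded SD by 3.69 ± 0.85 (SE; 95% interval 1.94 to 5.44; unadjusted p = 0.00019, limma adjusted p = 0.102). HFD exceeded SD by 2.82 ± 0.85, a 7.06-fold difference with 6 of 6 HFD livers above the SD mean (limma adjusted p = 0.419). HQ exceeded SD by 2.60 ± 0.89 (limma adjusted p = 0.828) and HR by 1.52 ± 0.85 (limma adjusted p = 0.972). In order of their means the groups ran HQR, HFD, HQ, HR and SD, and no 2 neighbours in this order were further apart than the pooled SD of the livers, 1.50, except HR and SD, at 1.52.

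Among the high fat groups, HQR exceeded HR by 2.17 ± 0.81 in Cyp26a1 (95% interval 0.50 to 3.84, unadjusted p = 0.013, limma adjusted p = 1.00), with 4 of 6 HQR livers above every HR liver. HR lay below HFD by 1.30 ± 0.81 (95% interval of the difference -2.97 to 0.37, limma adjusted p = 1.00). HQ and HFD differed by -0.22 ± 0.85, and HQR and HFD by 0.87 ± 0.81, intervals that reach from -1.97 to 1.53 and from -0.80 to 2.54. The HFD values rest in part on HFD replicate 4: without it HFD exceeded SD by 2.03, HR differed from HFD by -0.51, HQ and HFD differed by 0.57 and HQR and HFD by 1.66. The arrays lay on 9 slides scanned on 4 days, and the 3 slides that held both HQR and SD arrays gave differences of 4.01, 3.84 and 1.86. Of the 4 slides that held both HFD and SD arrays, 3 gave a positive difference and 1, at -0.46, did not. Slide accounted for 18.6% of the sum of squares of Cyp26a1 and diet for 45.7%, in separate fits. The call in HQR against SD depended on the model: the adjusted p was 0.0365 with array weights, 0.0335 with slide as a random block and 0.0378 without HFD replicate 4. Over all 43 alternatives it ranged from 0.0335 to 0.293 and the difference from 3.22 to 4.08.

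**Figure D1:**
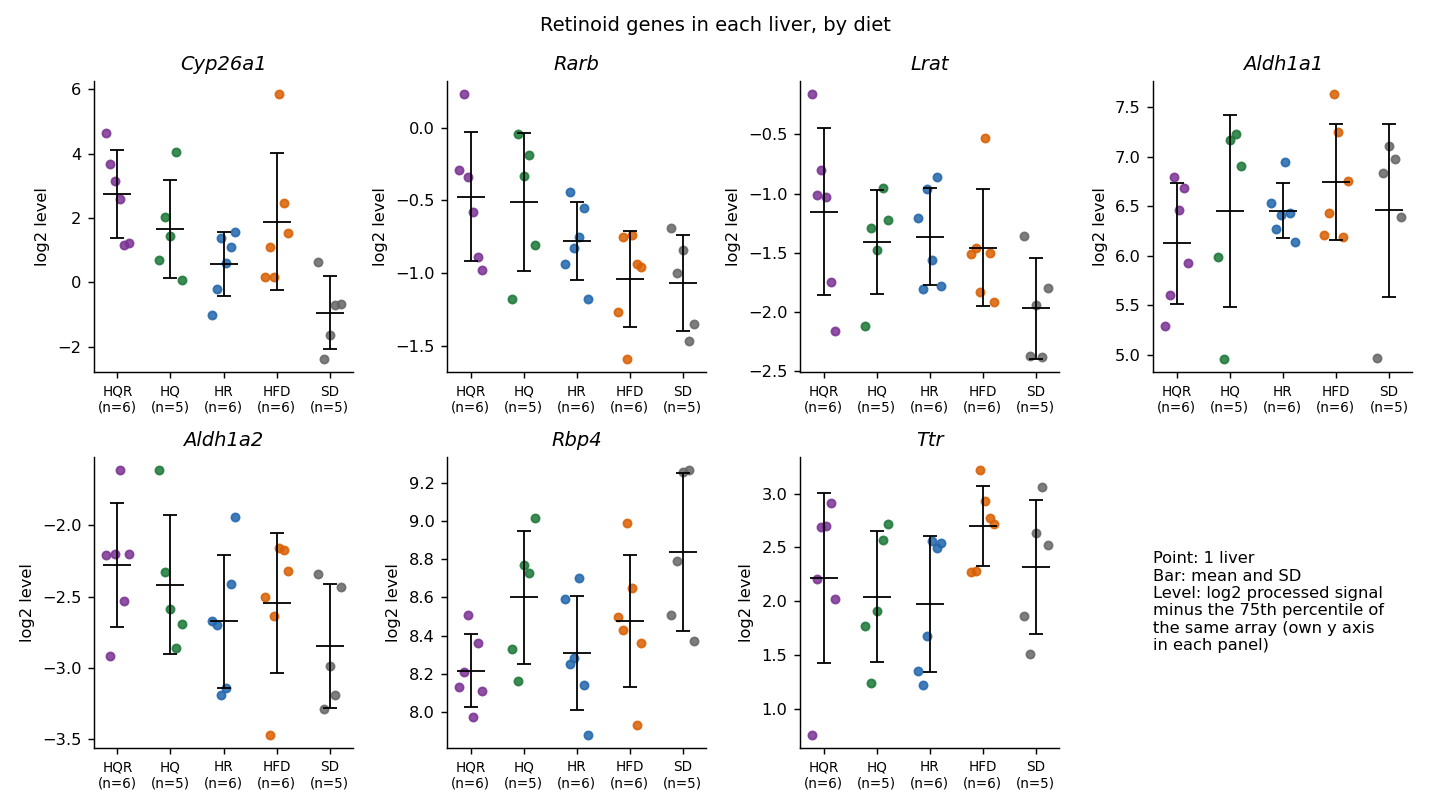
Level of each of the 7 retinoid genes in every liver, as log2 processed signal minus the 75th percentile of the array, by diet group (points are livers, bars the mean and SD, and each panel has its own y axis). In Cyp26a1 the 6 HQR livers lie between 1.17 and 4.64, above the highest SD liver at 0.63, and for the other 6 genes the HQR and SD livers overlap.

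A further probe, A_51_P281078, has no gene name in the array files and lies 199 bases beyond the Cyp26a1 probe, at chr19:37775825-37775883 on mm9. Of all genes and unnamed probes it had the level most like that of Cyp26a1 over the 28 livers, with a Pearson r of 0.783, and 0.936 after slide means were taken out. It was dim, being well above background in 5 of 6 HQR livers, 2 of 5 HQ livers, 2 of 6 HR livers, 4 of 6 HFD livers and 1 of 5 SD livers. Its mean was -2.19 ± 2.13 in HQR, -4.90 ± 1.52 in HR, -3.37 ± 2.30 in HFD and -5.33 ± 1.79 in SD. Because most HQ, HR and SD livers were not well above background, no difference between groups is given for it.

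Rarb, the gene of retinoic acid receptor beta, was measured by a probe at chr14:17263511-17263570 (mm9, minus strand) that is printed in 10 spots. Its level ranged from -0.98 to 0.23 in HQR livers (median -0.46), from -1.18 to -0.44 in HR livers (median -0.79) and from -1.59 to -0.74 in HFD livers (median -0.95). The HQ livers had -1.18, -0.04, -0.33, -0.19 and -0.81, and the SD livers had -0.69, -1.0, -0.84, -1.47 and -1.35. In HQR 4 of 6 livers, and in HQ 3 of 5, lay above every HFD liver and above every SD liver, while HFD and SD had nearly the same mean, -1.04 ± 0.33 and -1.07 ± 0.33.

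HQR exceeded HFD in Rarb by 0.57 ± 0.22 (1.48-fold, unadjusted p = 0.016, limma adjusted p = 0.987), and HQ exceeded HFD by 0.53 ± 0.23 (unadjusted p = 0.030, limma adjusted p = 1.00). Against SD the differences were 0.59 ± 0.23 for HQR, 0.56 ± 0.24 for HQ, 0.29 ± 0.23 for HR and 0.03 ± 0.23 for HFD, with limma adjusted p-values from 0.560 to 1.00. All 4 slides with both HQR and HFD arrays gave a positive difference, from 0.02 to 1.25. The 2 slides with both HQ and HFD arrays gave -0.07 and 0.09, and the HQ difference was 0.22 with slide as a block. Of the sum of squares of Rarb, slide accounted for 35.3% and diet for 35.1%, in separate fits. A second Rarb probe, designed to the transcript of an isoform, was dim, with group means from -3.97 to -3.65, was well above background on 23 of 28 arrays, and did not follow the first over the livers (r = -0.01).

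Lrat, the gene of the retinol esterifying enzyme, had levels from -2.16 to -0.16 in HQR livers (median -1.02), from -1.81 to -0.86 in HR livers (median -1.39) and from -1.92 to -0.53 in HFD livers (median -1.51). The HQ livers had -2.12, -1.29, -1.48, -0.95 and -1.22, and the SD livers had -1.36, -2.37, -1.94, -2.38 and -1.80. SD had the lowest mean of the 5 groups, -1.97 ± 0.42, and its livers overlapped those of every other group. HQR exceeded SD by 0.82 ± 0.30 (1.76-fold, 4 of 6 livers above every SD liver, unadjusted p = 0.012, limma adjusted p = 0.519). The differences from SD were 0.56 ± 0.32 for HQ, 0.60 ± 0.30 for HR and 0.51 ± 0.30 for HFD, each with a 95% interval that includes 0. With slide as a block they were 0.09 for HQ, 0.395 for HR and 0.48 for HFD, beside 0.91 for HQR, and the HQ value then leaves out HQ replicate 3, which was alone on its slide.

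The probe that stands for Lrat lies at chr3:82699609-82699668 (mm9, minus strand), and a second lies at chr3:82696805-82696864. The 2 probes followed each other over the livers (r = 0.879). By the second probe HQR exceeded SD by 1.12 ± 0.40 (limma adjusted p = 0.518) and HFD exceeded SD by 0.88 ± 0.40 (limma adjusted p = 0.762). Of the 3 slides with both HQR and SD arrays, 2 gave a positive difference for the first probe and 1, at -0.15, did not. The supplemented groups differed from HFD by 0.31 ± 0.29 (HQR), 0.05 ± 0.30 (HQ) and 0.09 ± 0.29 (HR). In each case the 95% interval includes 0, and with slide as a block they were 0.43 (HQR), -0.39 (HQ) and -0.08 (HR). By the first probe, slide accounted for 37.0% of the sum of squares of Lrat and diet for 24.1%, in separate fits.

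The retinal dehydrogenase genes gave no comparison with an unadjusted p under 0.05. Aldh1a1, the enzyme abundant in mouse liver, has its probe at chr19:20717764-20717823 (mm9). Its mean level was 6.13 ± 0.61 in HQR, 6.45 ± 0.97 in HQ, 6.45 ± 0.28 in HR, 6.74 ± 0.59 in HFD and 6.46 ± 0.87 in SD. HQR differed from HFD by -0.62 ± 0.38, with a 95% interval from -1.40 to 0.16, and every pair of groups overlapped. Slide accounted for 66.1% of the sum of squares of Aldh1a1 and diet for 9.56%, in separate fits.

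Aldh1a2, an enzyme best known from the embryo, has its probe at chr9:71143931-71143990 (mm9) and was well above background on all 28 arrays. Its mean was -2.28 ± 0.43 in HQR, -2.41 ± 0.49 in HQ, -2.68 ± 0.47 in HR, -2.54 ± 0.49 in HFD and -2.85 ± 0.44 in SD. HQR exceeded SD by 0.57 ± 0.28 (95% interval 0.00 to 1.14, unadjusted p = 0.051, limma adjusted p = 0.780), with 4 of 6 HQR livers above every SD liver. With slide as a block the difference was 0.28. In separate fits, slide accounted for 66.5% of the sum of squares of Aldh1a2 and diet for 17.8%.

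Rbp4, the gene of the plasma retinol-binding protein, has its probe at chr19:38191129-38191188 (mm9, minus strand) and was lowest on average in HQR. Its levels ranged from 7.97 to 8.51 in HQR livers (median 8.17), from 7.88 to 8.70 in HR livers (median 8.27) and from 7.93 to 8.99 in HFD livers (median 8.46). The HQ livers had 8.33, 8.16, 8.77, 8.73 and 9.02, and the SD livers had 8.51, 8.79, 9.26, 9.27 and 8.37. In HQR 5 of 6 livers, and in HR 4 of 6, lay below every SD liver. The difference from SD was -0.62 ± 0.20 for HQR (1.54-fold lower, unadjusted p = 0.0052, limma adjusted p = 0.417) and -0.53 ± 0.20 for HR (unadjusted p = 0.015, limma adjusted p = 0.632). It was -0.36 ± 0.20 for HFD and -0.24 ± 0.21 for HQ, and all slides that held SD with HQR, HQ, HR or HFD arrays gave negative differences. For Rbp4, slide accounted for 56.9% of the sum of squares and diet for 35.3%, in separate fits.

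The level of Rbp4 moved with hepatocyte markers in general. Over the 28 livers its Pearson r with the mean of 7 hepatocyte markers was 0.812 (Spearman rho 0.737, permutation p = 1e-05, the smallest the resamples could give, 0.00014 after adjustment over 14 relations). The r was 0.691 without the 2 livers furthest from the median marker level, and 0.719 after slide means were taken out. Relations with cell markers were added after the values had been seen, and the permutations moved livers freely across slides and groups. The mean level of these markers ranged from 5.80 to 6.17 in HQR livers, 5.94 to 6.29 in HQ livers, 5.81 to 6.22 in HR livers and 5.77 to 6.44 in HFD livers, against 6.12 to 6.99 in SD livers. Their part in the Rbp4 differences was not tested. In whole liver RNA, fewer cells of a type and less RNA per cell cannot be told apart.

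Ttr, the gene of transthyretin, was highest on average in HFD. Its mean was 2.21 ± 0.79 in HQR, 2.04 ± 0.61 in HQ, 1.97 ± 0.63 in HR, 2.70 ± 0.37 in HFD and 2.32 ± 0.62 in SD. HR lay below HFD by 0.72 ± 0.34 (unadjusted p = 0.045, limma adjusted p = 1.00), with 3 of 6 HR livers below every HFD liver. HQ differed from HFD by -0.65 ± 0.36 and HQR by -0.48 ± 0.34, and every slide that held both HFD and a supplemented group gave a negative difference. Slide accounted for 64.3% of the sum of squares of Ttr and diet for 17.8%, in separate fits.

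**Figure D2:**
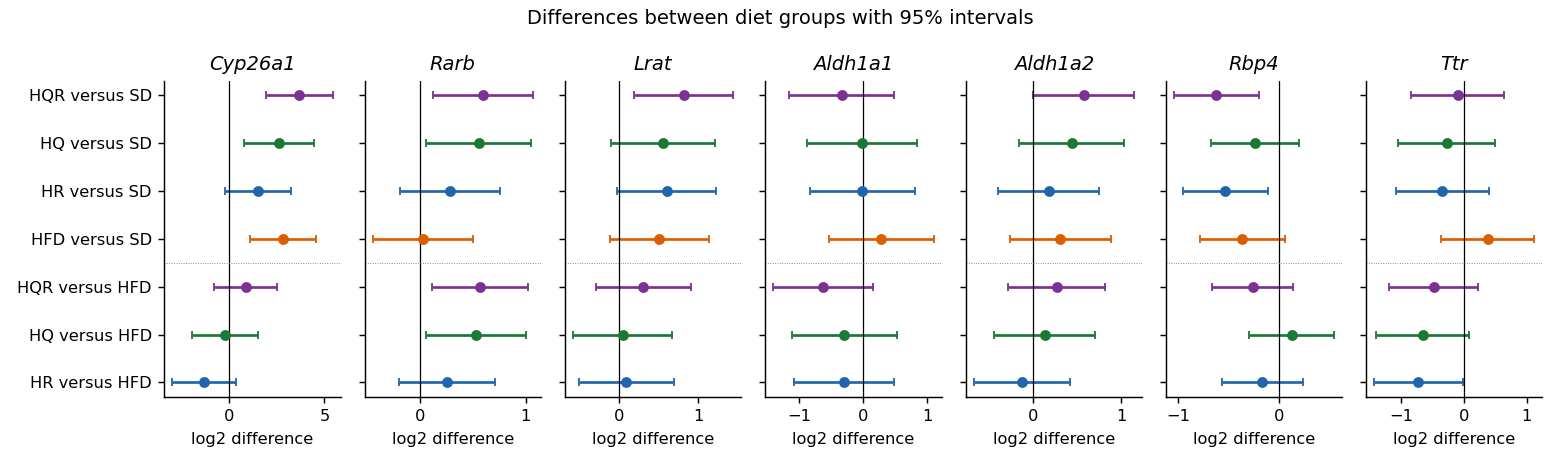
Log2 difference between diet groups for each retinoid gene, with the 95% interval of the linear model (points are the estimate, panels are genes with their own x axes, and colours mark the first-named group). The Cyp26a1 interval for HQR against SD reaches from 1.94 to 5.44, and the Rbp4 interval for the same comparison from -1.05 to -0.20, while no difference passed an adjusted p of 0.05.

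Several pairs of the 7 genes varied together from liver to liver. All 21 pairs were compared over the 28 livers by correlation, with 100000 permutations and adjustment over the pairs. The permutations moved livers freely across slides and groups, so their p-values make no allowance for either. The 7 genes were also chosen with earlier results of these data known. Cyp26a1 and Lrat had r = 0.743 (rho 0.639, adjusted permutation p = 0.00042 for r and 0.00203 for rho). The relation was 0.660 without HFD replicate 4 and SD replicate 2, 0.701 with group means taken out and 0.745 with slide means taken out. Within the groups of 6 livers it was 0.943 in HQR, 0.131 in HR and 0.866 in HFD, differences that were not tested. The HFD value rests on HFD replicate 4, without which it was 0.158 over 5 livers. Within the 2 scan days with at least 6 arrays it was 0.776 (n = 6) and 0.703 (n = 14).

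Rarb, by its brighter probe, was related to both of them over the 28 livers. Its r was 0.619 with Lrat (rho 0.720, adjusted permutation p = 0.00205 for r and 0.00063 for rho) and 0.560 with Cyp26a1 (rho 0.575, adjusted permutation p = 0.00728 for r and 0.00574 for rho). Without the 2 livers furthest out these were 0.650 and 0.648, and with slide means taken out 0.669 and 0.703. Within scan days the Rarb and Lrat relation was 0.596 and 0.769 and the Cyp26a1 and Rarb relation 0.905 and 0.581. The Rarb and Lrat relation was 0.680 within HQR, 0.146 within HR and 0.555 within HFD. For Cyp26a1 and Rarb these were 0.819, -0.245 and 0.661. The second, dim Rarb probe had r = 0.147 with Cyp26a1. The esterifying enzyme, the receptor and the hydroxylase were all above their own median over 28 livers in 8 livers, of which 4 were HQR (replicates 1, 2, 3 and 4), 3 were HQ (replicates 2, 3 and 4) and 1 was HFD (replicate 4). All 3 genes were below it in 7 livers, of which 1 was HQ (replicate 1), 2 were HFD (replicates 1 and 3) and 4 were SD (replicates 2, 3, 4 and 5).

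Among the other genes, Rbp4 and Aldh1a1 had r = 0.631 (rho 0.758, adjusted permutation p = 0.00205 for r and 0.00021 for rho). Aldh1a1 and Ttr had r = 0.618 (rho 0.599, adjusted permutation p = 0.00205 for r and 0.00488 for rho), which was 0.0581 within the scan day of 6 arrays and 0.793 within that of 14. Rbp4 and Aldh1a2 were inversely related, with r = -0.556 (rho -0.581, adjusted permutation p = 0.00728 for r and 0.00574 for rho), and -0.319 with slide means taken out. Leaving out the 2 furthest livers gave 0.619, 0.573 and -0.477 for these 3 pairs. The rank correlation was also past 0.05 after adjustment for Cyp26a1 with Aldh1a2 (rho 0.529, adjusted permutation p = 0.0127) and with Rbp4 (rho -0.515, adjusted permutation p = 0.0144), while the adjusted p for r was 0.101 and 0.0767.

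**Figure D3:**
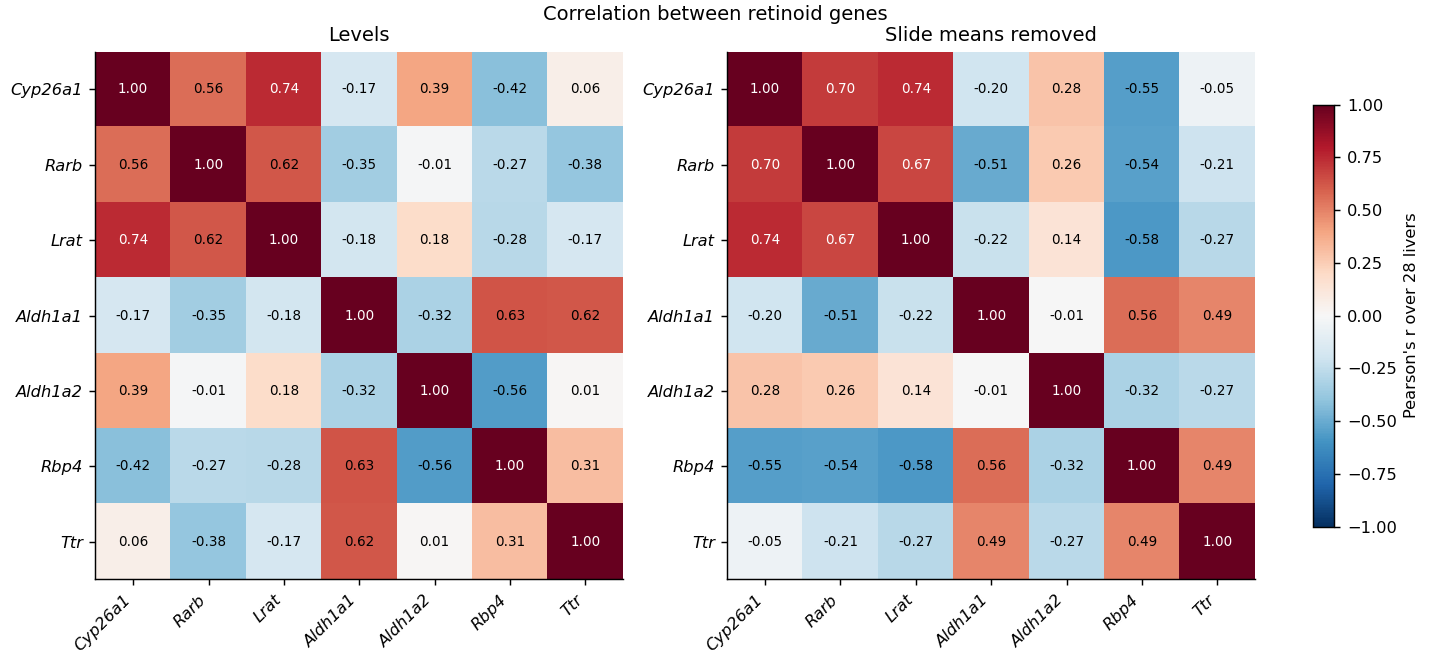
Pearson correlation between the 7 retinoid genes over 28 livers, from the levels (left) and after the mean of each slide was taken out (right), coloured from -1 to 1. Cyp26a1, Rarb and Lrat form a block with r from 0.56 to 0.74 in the levels, while the r of Rbp4 with these 3, from -0.42 to -0.27, did not pass after adjustment (permutation p for r of 0.0767 to 0.248). The rho of Rbp4 with Cyp26a1, -0.515, did (adjusted permutation p = 0.0144). With slide means taken out (right) the r of Rbp4 was -0.548 with Cyp26a1, -0.544 with Rarb and -0.575 with Lrat. With group means taken out, which is not drawn, r was -0.23 to -0.01 for the 3.

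The relation of Lrat, Rarb and Cyp26a1 with stellate cell markers did not pass the test. These marker relations too were added after the values had been seen, with permutations that moved livers freely across slides and groups. Lrat is a stellate cell enzyme in mouse liver, so its level was set against the mean of 12 stellate cell markers: r was 0.0888 for Lrat, 0.0553 for Rarb and -0.0525 for Cyp26a1 (rho 0.0892, -0.0602 and 0.0646), with adjusted permutation p-values from 0.761 to 0.791 for r. The mean level of the stellate list ranged from 0.952 to 1.103 in HQR livers, 0.73 to 1.43 in HQ livers, 0.75 to 1.29 in HR livers, 0.56 to 1.39 in HFD livers and 0.31 to 1.07 in SD livers. With the hepatocyte markers r was -0.221 for Lrat, -0.302 for Rarb and -0.303 for Cyp26a1, with adjusted permutation p-values from 0.167 to 0.333. Aldh1a2 was the one gene with a positive relation to the stellate markers past the threshold, r = 0.531 (rho 0.520, adjusted permutation p = 0.0149 for r). It was 0.369 without the 2 furthest livers and 0.217 with slide means taken out. Aldh1a1 had r = -0.538 with the stellate markers (rho -0.673, adjusted permutation p = 0.0149 for r), which was -0.541 without the 2 furthest livers and 0.162 with slide means taken out. Rbp4 had r = -0.475 with the stellate markers (rho -0.457, adjusted permutation p = 0.0287 for r), which was -0.336 without the 2 furthest livers and -0.0594 with slide means taken out. With the hepatocyte markers Aldh1a1 had r = 0.522 (rho 0.654, adjusted permutation p = 0.0149 for r) and Aldh1a2 had r = -0.448 (rho -0.465, adjusted permutation p = 0.0400 for r). These were 0.538 and -0.321 without the 2 furthest livers, and 0.283 and -0.253 with slide means taken out.

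Among 21664 genes and unnamed probes with complete values, the one most like Lrat over the 28 livers was Cyp26b1, which encodes the second retinoic acid hydroxylase. Its r with Lrat was 0.844, and 0.804 with slide means taken out, and it ranked first by both measures. Cyp26a1 ranked 2 and Rarb 7 for Lrat, and Lrat ranked 2 for Cyp26a1. With slide means taken out these ranks were 3, 10 and 7. Lrat ranked 16 and Cyp26a1 51 for Rarb, and Rarb ranked 60 for Cyp26a1. With slide means taken out the latter were 22, 13 and 25. Cyp26b1 itself had r = 0.683 with Cyp26a1 and 0.549 with Rarb. Because it was picked from all genes for its likeness, no p is given for these relations. Its level ranged from -1.60 to 3.74 in HQR livers (median 2.98), from -0.37 to 2.73 in HR livers (median 1.39) and from -0.04 to 4.21 in HFD livers (median 0.83). The HQ livers had 0.05, 0.77, 1.23, 3.12 and 2.50, and the SD livers had 1.51, -1.45, 0.12, 1.03 and -0.93. All groups overlapped, and since the gene was picked for following Lrat, its group values are no independent evidence.

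**Figure D4:**
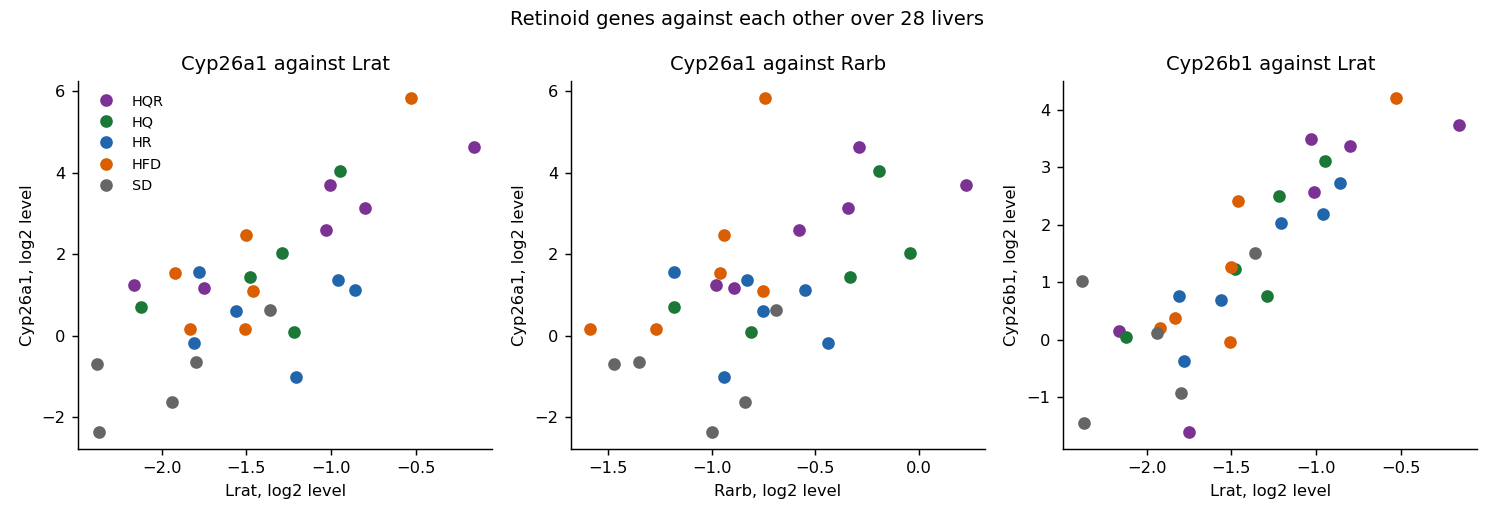
Cyp26a1 against Lrat, Cyp26a1 against Rarb and Cyp26b1 against Lrat, as log2 levels in the 28 livers, coloured by diet group (each point is 1 liver). HFD replicate 4 is the highest liver for Cyp26a1 at 5.84 and for Cyp26b1 at 4.21, and the SD livers lie at the low end of Cyp26a1, from -2.37 to 0.63.

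After Cyp26b1, the genes most like Lrat were Zfp935 (r = 0.660) and Hic1 (r = 0.658). For Cyp26a1 they were Nrn1 (r = 0.733) and Raet1a (r = 0.722) after the neighbouring probe. Rarb was most like Adgrg3 (r = 0.678), Pcdhb21 (r = 0.677) and Ldb2 (r = 0.674), and Hic1 was among its nearest 3 once slide means were taken out (r = 0.764). The carriers and Aldh1a1 were closest to genes of other kinds, Rbp4 to Csnk2b (r = 0.916), Aldh1a1 to Dnajc15 (r = 0.937) and Ttr to Lrrc61 (r = 0.927). For Aldh1a2 the nearest was BB114814 (r = 0.789).

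The rest of the pathway was read from a list of 58 other retinoid genes, of which 55 were on the array and 49 were tested. None of the 49 passed in any comparison in limma, in which between 0% and 0.16% of all genes were called. An unadjusted p under 0.05 was reached by 10 of 49 in HQR against SD (20.4%, beside 6.43% of all genes) and by 2 in HQ against SD (4.08%, beside 3.91%). It was reached by 6 in HR against SD (12.2%, beside 5.72%) and by 7 in HFD against SD (14.3%, beside 6.14%). The median difference over the 49 was -0.09 in HQR against SD (0.01 for all genes), -0.20 in HQ against SD (-0.05 for all genes), -0.21 in HR against SD (-0.05) and -0.07 in HFD against SD (-0.04). In HQR against SD 14 of the 49 differences were above 0 (28.6%), beside 51.2% of all genes. This list too was chosen with earlier results of these data known, so its shares are no test of the pathway.

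Rdh11, which encodes a retinal reductase, was among the 3 genes of this list with the smallest p in every high fat group against SD. Its mean was 0.00 ± 0.51 in HQR, -0.18 ± 0.59 in HQ, 0.04 ± 0.51 in HR, 0.08 ± 0.34 in HFD and 0.91 ± 0.59 in SD. The difference from SD was -0.91 ± 0.30 for HQR, -1.09 ± 0.32 for HQ, -0.87 ± 0.30 for HR and -0.83 ± 0.30 for HFD, with limma adjusted p-values from 0.418 to 0.587. These 4 comparisons share the same 5 SD livers.

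The 20 tested enzymes of retinol and retinal, Rdh11 included, had a median difference of -0.14 in HQR against SD (range -0.91 to 0.56). The median was -0.23 in HQ against SD, -0.21 in HR against SD (range -0.87 to 0.89) and -0.04 in HFD against SD. In HQR against SD 5 of 20 were above 0 (25%, beside 51.2% of all genes), and in HQ 4 of 20 (20%, beside 42.0%). In HR against SD it was 9 of 20 (45%, beside 42.7% of all genes) and in HFD 7 of 20 (35%, beside 44.6%). The genes named here had the smallest p of the list and do not stand for the group. In HQR against SD, Rdh9, a retinol dehydrogenase, differed by -0.72 ± 0.27 and Aldh1a3, another retinal dehydrogenase, by -0.91 ± 0.31. Aldh1a3 was dim, with a mean of -4.33 in HQR and -3.42 in SD, and was well above background in 4 of 6 HQR livers and 5 of 5 SD livers. In HR against SD, Rdh5 differed by -0.48 ± 0.18 and Dhrs3, which returns retinal to retinol, by -0.41 ± 0.14. In HQ against SD the aldehyde oxidase gene Aox3 differed by -0.68 ± 0.33. Rara, retinoic acid receptor alpha, was dim in every group, with means from -4.64 in HQ to -4.01 in SD. It was well above background in none of the 5 HQ livers and in 4 of 5 SD livers. In the other groups it was so in 5 of 6 HQR, 1 of 6 HR and 3 of 6 HFD livers. In HFD against SD, Cd36, which encodes a fatty acid and lipoprotein receptor, differed by 1.65 ± 0.54.

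Against HFD, Cyp2c39, a cytochrome P450 that hydroxylates retinoic acid in mouse liver, differed by -0.85 ± 0.41 in HQ and -1.06 ± 0.39 in HR. Rdh9 differed by -0.68 ± 0.25 in HQR and by -0.66 ± 0.25 in HR. Dusp6, a phosphatase gene, differed from HFD by -0.59 ± 0.24 in HQR, -0.54 ± 0.25 in HQ and -0.54 ± 0.24 in HR. Rdh16 differed by -0.54 ± 0.25 in HQ and Cyp3a11, a drug-metabolising cytochrome P450, by -0.59 ± 0.30 in HQR. The limma adjusted p was above 0.9 for each of these, and the comparisons share the same 6 HFD livers.

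Markers of other cells were present in every group. The mean of 6 sinusoidal endothelial markers was 1.55 ± 0.28 in HQR, 1.65 ± 0.29 in HQ, 1.97 ± 0.22 in HR, 1.26 ± 0.49 in HFD and 1.13 ± 0.43 in SD. The mean of 6 Kupffer cell markers was -0.20 ± 0.36 in HQR, -0.37 ± 0.48 in HQ, 0.21 ± 0.45 in HR, -0.43 ± 0.33 in HFD and -0.11 ± 0.59 in SD. Between 59.3% and 82.1% of probes were well above background on an array, and the 3 arrays of slide 8 (HQR replicate 4, HR replicate 6 and HFD replicate 5) had at least 79.3%, against at most 74.3% elsewhere. Without slide 8 none of the 7 retinoid genes was called in any comparison.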

How the data were processed

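RNA from 28 livers was hybridised to 1-colour arrays. Per the file headers, Agilent Feature Extraction 10.5.1.1 gave each spot a processed intensity from which background had been subtracted. The authors also deposited a table of 1 score per probe and array. Within an array these scores are centred on 0 with unit SD and track the log of the processed signal, so they served as an alternative only, multiplied by 3.21. Groups and replicate numbers came from the labels, slides and scan days from the file headers.

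Intensities were put on the log2 scale, and the 75th percentile of each array was subtracted. Probes well above background on at least 5 arrays were kept (32078 of 41174), and the probe with the highest mean stood for a gene. All 28 arrays were fitted in 1 model with limma 3.58.1 in R 4.3.3, with two-sided tests and Benjamini-Hochberg adjustment over 21851 genes. Each array is a separate mouse, and precision is limited by how many arrays a group has. The procedure was tested on simulated data. Alternatives were other normalizations, background corrections, filters and probe rules, the deposited table, array weights, a block for replicate number, slide or scan day, and the omission of single arrays.

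The 7 genes, the list of other retinoid genes and the marker lists were chosen with earlier results of these data known, and the contrast of all high fat groups with SD and the relations with cell markers were added after the values had been seen. Genes outside the 7 were named where they had 1 of the 3 smallest p-values of the retinoid list in a comparison, or 1 of the 3 highest correlations with a member. A gene that this rule picked in HFD against SD is not reported here. The adjusted and unadjusted p-values are from these fits and none was deposited. Same-numbered HFD and SD livers deviated together (5 correlations from 0.217 to 0.698), whereas the correlations of HQR with HFD ranged from -0.469 to 0.684. The labels do not state a pairing. The main fit paired no livers, and replicate number served only as an alternative block. Promoter windows are those of RefSeq on GRCm38.p6, matched by symbol, and no coordinate was converted between builds.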

Additional observations from a re-analysis of the deposited data

Results flagged for a closer look

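In 35 sets of livers (7 genes in 5 groups), the highest and lowest liver was compared with the rest of its group. Chance gives about 1 in 20, or 1.75 of 35, and 2 livers stood apart. In Lrat, HFD replicate 4 was the highest of 6, its gap to the next liver being 0.668 of the range of the group, and the same liver was the highest of all for Cyp26a1. In Aldh1a2, HFD replicate 2 was the lowest of 6, with a gap of 0.63 of the range.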

How the results depend on the processing

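Each pairwise comparison was refitted under 43 alternatives, 28 of which left out 1 array. Of 77 differences between groups in the 7 genes, 50 kept their sign throughout and 27 changed it under at least 1 alternative. A retinoid gene was called in HQR against SD under array weights (1 gene), with slide as a random block (1 gene) and without HFD replicate 4 (1 gene), with a range of 0 to 1 over the arrays left out. In all 4 high fat groups against SD it was 1 gene under array weights. The gene was Cyp26a1 in each case. With array weights 113 of all genes were called in HQR against SD and with the random block 108, beside 11 in the main fit, and without HFD replicate 4 the count was 12. The cause was not tested. With the replicate number as a block, 0 of the 7 genes were called in any comparison, so this block changed no call. Low signal limits the second Rarb probe, the unnamed probe beside Cyp26a1, and the probes of Aldh1a3 and Rara.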

Other observations

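Hic1, a transcriptional repressor gene that the rule for named genes picked by its likeness to Lrat and Rarb, had levels from 0.71 to 1.38 in HQR livers, above the range of -0.83 to 0.49 in SD livers. Of all genes with a value on every HQR and SD array, 0.381% had every HQR liver above every SD liver. Hic1 was not called in HQR against SD (limma adjusted p = 0.0683). Its levels were 0.28 to 1.11 in HQ livers, 0.34 to 0.86 in HR livers and 0.03 to 1.06 in HFD livers, all overlapping SD. The gene was picked from all genes for its correlation with Lrat and Rarb, which both had higher means in HQR than in SD. Its group values are therefore no independent evidence.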
